A study of Mus musculus with 25 samples.

Results

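The miR-23, miR-27 and miR-24 clusters are represented in the deposited tables of mouse hypothalamic small RNA by 9 mature entries, mmu-miR-23a-3p, mmu-miR-23b-3p, mmu-miR-27a-3p, mmu-miR-27b-3p, mmu-miR-24-3p, mmu-miR-27a-5p, mmu-miR-27b-5p, mmu-miR-24-1-5p and mmu-miR-24-2-5p. They are 9 of 1618 miRNA entries and were chosen by name from the clusters, with their folds in these same tables already known, so every fold and p-value given for them here is a description. The study covered 25 libraries in 8 groups of wild-type C57BL/6J mice, named by the diet of the dam and then that of the offspring. HCD is a hypercaloric diet with 52% fat and high sucrose, and RD is regular chow. Dams were on their diet for 1 month ahead of mating and then until weaning, offspring went onto theirs at weaning, and whole hypothalamus was taken at 3 months of age in all groups. HCD-HCD, HCD-RD and RD-HCD had 3 libraries in each sex, and RD-RD, the group with chow throughout, had 4 male and 3 female libraries. The labels used here do not say which animals were littermates or whether tissue was pooled, so the p-values measure only the spread between these libraries.

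Both clusters carry a miR-23, a miR-27 and a miR-24 hairpin in the same order, and each is transcribed as a shared primary transcript that is cut by Drosha and Dicer into hairpins and then mature arms. The 3p arms are the main products and enter Argonaute, where bases 2 to 8, the seed, pair with target mRNAs. In mouse and cultured cells miR-27 is known for repressing Pparg and adipogenesis, miR-23 represses glutaminase in human cells, and miR-24 is known for effects on cell cycle and apoptosis genes. The clusters are abundant in endothelial cells, and miR-23 is also abundant in astrocytes.

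The mature sequences are shown because the members fall into seed groups that cross the clusters. They come from RefSeq on GRCm38.p6, where 8 of the 9 members matched an entry, and capitals mark bases 2 to 8.
mmu-miR-23a-3p: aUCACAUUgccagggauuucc
mmu-miR-27a-3p: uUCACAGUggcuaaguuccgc
mmu-miR-27b-3p: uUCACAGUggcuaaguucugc
mmu-miR-24-3p: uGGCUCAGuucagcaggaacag
mmu-miR-27a-5p: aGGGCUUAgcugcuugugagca
mmu-miR-27b-5p: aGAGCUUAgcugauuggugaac
mmu-miR-24-2-5p: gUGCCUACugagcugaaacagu
mmu-miR-24-1-5p: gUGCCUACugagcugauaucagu

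Counting from 1 at the 5′ end, mmu-miR-27a-3p and mmu-miR-27b-3p differ by the substitution C19U alone and share a seed, so reads could be split between the entries and either value is uncertain. The 5p arms mmu-miR-27a-5p and mmu-miR-27b-5p differ at 8 of 22 positions, of which G3A lies in the seed. Seeds of mmu-miR-23a-3p and mmu-miR-27a-3p differ by U7G. The mature mmu-miR-24-3p is identical from both clusters and is a single entry, so its level cannot be assigned to either locus. Its 5p partners mmu-miR-24-1-5p and mmu-miR-24-2-5p share their leading 16 bases and a seed but are 23 and 22 bases long. mmu-miR-23a-3p and mmu-miR-23b-3p are close paralogues whose reads could likewise be split.

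On GRCm38 with the GENCODE M21 annotation, Mir23a (chr8:84208518-84208592), Mir27a (chr8:84208672-84208758) and Mir24-2 (chr8:84208815-84208921) lie on the plus strand of chromosome 8 within 404 bp. None of them lies within a host gene, and the last 2 bp of Mir24-2 overlap an exon of the lincRNA gene Gm26532. Mir23b (chr13:63300484-63300557), Mir27b (chr13:63300712-63300784) and Mir24-1 (chr13:63301208-63301275) lie on the plus strand of chromosome 13 within 792 bp, inside the protein-coding gene 2010111I01Rik on the same strand. Mir23b is intronic there, Mir27b overlaps an exon of a transcript annotated for nonsense-mediated decay, and Mir24-1 overlaps exons of such transcripts and of processed and retained-intron ones. All 3 are also antisense to an intron of Fancc.

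**Figure D1:**
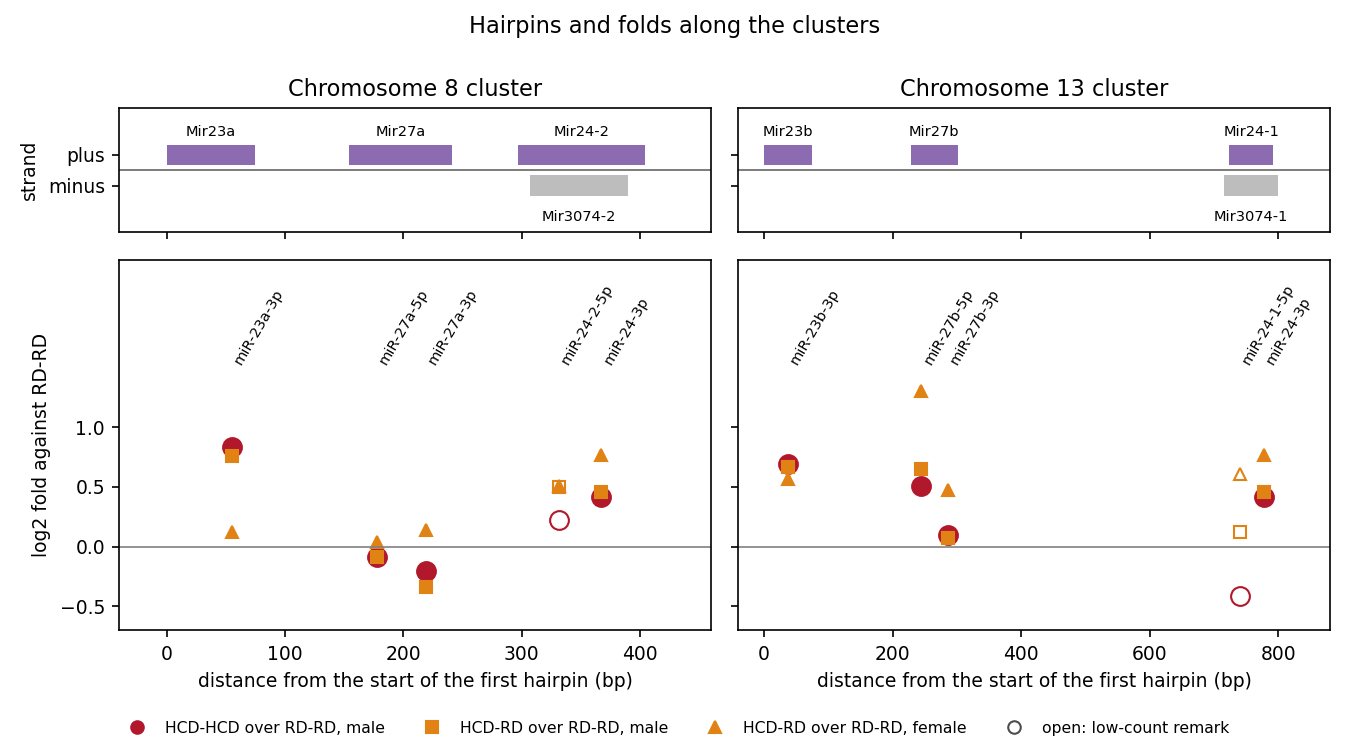
Positions of the hairpins on each strand against distance from the first hairpin in bp (top), and the log2 fold over RD-RD of the mature arms at their own positions (bottom) for the 3 comparisons in which a member was called; mmu-miR-23b-3p is drawn at the middle of its hairpin, mmu-miR-24-3p at both of its loci, and open symbols carry a low-count remark. In HCD-HCD males mmu-miR-23a-3p stands at 0.83 and its neighbour mmu-miR-27a-3p at -0.20.

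The tables hold a fold, an unadjusted DESeq2 p-value and a low-count remark for each miRNA and comparison, and the level in each library is not given in them. A fold is the normalised level in the group named over that in RD-RD of the same sex. A remark means that the mean count of unique molecular identifiers was below 10 in a group. A Benjamini-Hochberg adjustment was made over all miRNAs of a comparison, and a miRNA is called at an adjusted p under 0.05. Standard errors (SE, on the log2 scale) and 95% intervals were derived from the deposited fold and p, and none is given where the log2 fold is within 0.05 of 0. Depth per library is unknown. In whole tissue, fewer cells of a type and less RNA per cell cannot be told apart. Library names carry order numbers. The 12 HCD-HCD and HCD-RD libraries have 12 different ones, and the 10 RD-RD and female RD-HCD libraries have 10 different ones. No number recurs within a set, but 7 recur between the sets. The sets were defined for this count, and the labels used here name no batch. If the sets were handled apart, that cannot be told apart from group in the 4 comparisons of HCD-HCD or HCD-RD with RD-RD. RD-HCD males were not in this count, so it does not cover their comparison with RD-RD.

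All calls came from 4 members, and each was higher than in RD-RD. The miR-23 entries mmu-miR-23a-3p and mmu-miR-23b-3p were called in males whose dams ate the hypercaloric diet, whichever diet the offspring ate, with folds from 1.59 to 1.78 in the authors' deposited table. In HCD-RD females the called members in the authors' deposited table were mmu-miR-27b-5p, with a fold of 2.46, and mmu-miR-24-3p, with a fold of 1.70. That comparison was deposited apart from the other female ones, with a p for 1298 miRNAs against 1497, so the calls are not directly comparable. In HCD-RD females mmu-miR-23b-3p, not called, had a fold of 1.48 in the authors' deposited table, against 1.59 in HCD-RD males. For mmu-miR-23b-3p, mmu-miR-27b-5p and mmu-miR-24-3p the interval of the difference between the sexes in HCD-RD held 0. Of 54 member values, 42 were folds over 1 and 12 were folds under 1, and 6 were called. Of all miRNAs, between 34.4% and 57.2% had a fold over 1 in a comparison, and between 46.0% and 55.0% of those with no remark.

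In HCD-HCD males 2 members were called higher and 0 lower, where 5.61% of 1426 miRNAs were called higher and 13.7% lower. In HCD-RD males 2 were called higher and 0 lower, where 6.38% of all miRNAs were called higher and 12.0% lower. In RD-HCD males none was called, with 1 at an unadjusted p under 0.05, and 0.14% of all miRNAs were called higher and 1.33% lower. In HCD-HCD females none was called or reached an unadjusted p under 0.05, and of 1497 miRNAs 0.0668% were called higher and 0.0% lower. In HCD-RD females 2 were called higher and 0 lower, 3 having an unadjusted p under 0.05, where 1.0% of 1298 miRNAs were called higher and 0.693% lower. In RD-HCD females none was called or reached an unadjusted p under 0.05, and 0.0% of all miRNAs were called in either direction. In HCD-HCD and HCD-RD males 3 and 5 members had an unadjusted p under 0.05, as did 463 and 458 of the 1426 miRNAs. In RD-HCD males 178 miRNAs did, and in HCD-HCD, HCD-RD and RD-HCD females 84, 149 and 15. The shares include low-count miRNAs. In HCD-HCD and HCD-RD males only 757 and 765 of the 1426 miRNAs had no remark, against 7 of the 9 members in both. Since the members were chosen with these contrasts known, nothing is read from the counts.

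The median log2 fold of the 9 members stood at 0.23 for HCD-HCD males, 0.45 for HCD-RD males and 0.23 for RD-HCD males, where the median of all miRNAs was -0.27, -0.25 and -0.14. In females it stood at 0.10 for HCD-HCD, 0.51 for HCD-RD and 0.01 for RD-HCD, where that of all miRNAs was 0.06, -0.06 and 0.03. Among miRNAs with no remark the medians of all miRNAs were nearer 0, between -0.01 and 0.08, and the members with no remark stood at 0.41, 0.45 and 0.32 in the male comparisons and 0.10, 0.49 and 0.03 in the female ones.

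**Figure D2:**
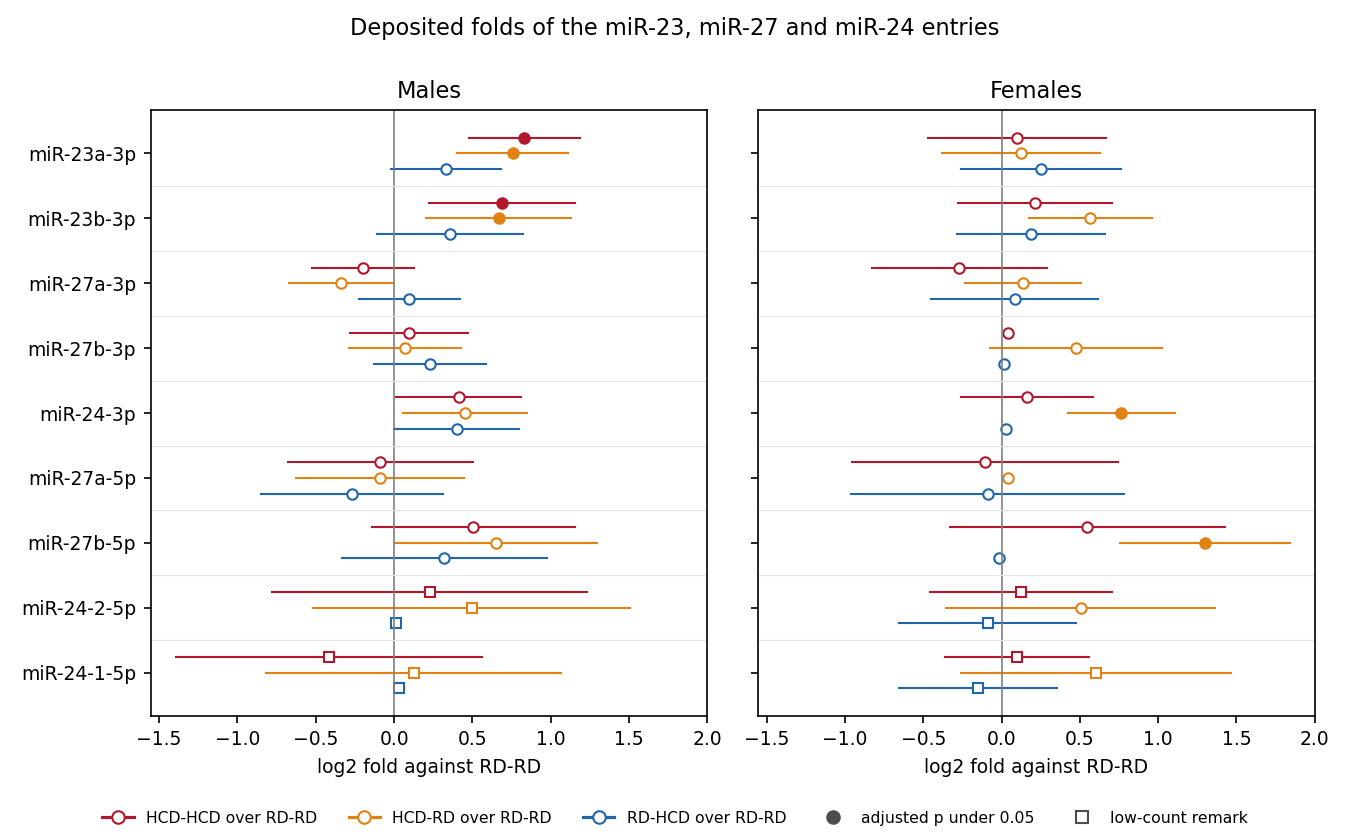
Log2 fold over RD-RD of the 9 members (rows) in males and females, by group; points are the deposited folds, bars the 95% intervals implied by fold and p, filled symbols are called at an adjusted p under 0.05 and squares carry a low-count remark. The miR-23 rows are filled in HCD-HCD and HCD-RD males, and mmu-miR-24-3p and mmu-miR-27b-5p in HCD-RD females.

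mmu-miR-23a-3p, from the chromosome 8 cluster, rose in HCD-HCD males 1.78-fold in the authors' deposited table (95% interval 1.39 to 2.28, SE 0.18, DESeq2 p with Benjamini-Hochberg adjustment 1.848e-04). It rose in HCD-RD males 1.69-fold in the authors' deposited table (1.32 to 2.16, SE 0.18, adjusted DESeq2 p = 6.334e-04). RD-HCD males, whose dams ate chow, had a fold of 1.26 in the authors' deposited table (0.988 to 1.61, adjusted DESeq2 p = 0.462). In females the authors' deposited table gave 1.07 for HCD-HCD, 1.09 for HCD-RD and 1.19 for RD-HCD, and each interval held 1. The fold was over 1 in all 6 comparisons, and in HCD-HCD males 92.7% of the miRNAs with no remark had a lower one.

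mmu-miR-23b-3p, its paralogue from chromosome 13, rose in HCD-HCD males 1.61-fold in the authors' deposited table (1.17 to 2.22, SE 0.24, adjusted DESeq2 p = 0.0262). In HCD-RD males it rose 1.59-fold in the authors' deposited table (1.15 to 2.19, SE 0.24, adjusted DESeq2 p = 0.0316). These calls sit close to the threshold and are lost under the Benjamini-Yekutieli and Holm adjustments. The fold in HCD-RD females was 1.48 in the authors' deposited table (1.13 to 1.94), where the unadjusted DESeq2 p was 0.00471 and the adjusted one 0.122. The remaining folds in the authors' deposited table were 1.28 in RD-HCD males, 1.16 in HCD-HCD females and 1.14 in RD-HCD females, with intervals that held 1. Both miR-23 paralogues therefore had folds over 1 in each of the 6 comparisons.

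The 3p arms of miR-27, the Pparg-repressing products, were not called in any comparison. mmu-miR-27a-3p had folds of 0.87 in HCD-HCD males, 0.79 in HCD-RD males and 1.07 in RD-HCD males in the authors' deposited table. The HCD-RD male value had an interval of 0.628 to 0.994 and an unadjusted DESeq2 p of 0.0446, with an adjusted p of 0.144. In females the authors' deposited table gave 0.83 for HCD-HCD, 1.10 for HCD-RD and 1.06 for RD-HCD. Folds of mmu-miR-27a-3p were thus under 1 in 3 comparisons and over 1 in 3. mmu-miR-27b-3p had male folds of 1.07 for HCD-HCD, 1.05 for HCD-RD and 1.17 for RD-HCD in the authors' deposited table. Its female folds in the authors' deposited table were 1.03 for HCD-HCD, 1.39 for HCD-RD and 1.01 for RD-HCD. The HCD-RD female value, the highest of the 6, had an interval of 0.950 to 2.03 and an adjusted DESeq2 p of 0.560.

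mmu-miR-24-3p, the product shared by both clusters, rose in HCD-RD females 1.70-fold in the authors' deposited table (1.34 to 2.15, SE 0.17, adjusted DESeq2 p = 0.00234). There 97.0% of the miRNAs with no remark had a lower fold. In males it had similar folds in all 3 groups of the authors' deposited table, 1.33 for HCD-HCD, 1.37 for HCD-RD and 1.32 for RD-HCD. The unadjusted DESeq2 p-values of these male folds were 0.0418, 0.0241 and 0.0486 in the authors' deposited table, and none passed after adjustment (0.135, 0.0938 and 0.397). RD-HCD males had no other member at an unadjusted p under 0.05. The folds in HCD-HCD and RD-HCD females were 1.12 and 1.02 in the authors' deposited table.

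Among the 5p arms, mmu-miR-27b-5p rose in HCD-RD females 2.46-fold in the authors' deposited table (1.69 to 3.58, SE 0.28, adjusted DESeq2 p = 7.953e-04). It was the highest of the 54 member folds, and 99.6% of 755 miRNAs with no remark had a lower fold in that comparison. Its folds in the authors' deposited table were 1.42 in HCD-HCD males, 1.57 in HCD-RD males and 1.25 in RD-HCD males. The HCD-RD male value had an interval of 1.00 to 2.46 and adjusted DESeq2 p of 0.152. HCD-HCD females had 1.46 (0.794 to 2.68) and RD-HCD females 0.99 in the authors' deposited table. mmu-miR-27a-5p, the matching arm of the chromosome 8 cluster, ranged only from 0.83 to 1.03 over the 6 comparisons of the authors' deposited table and was never called.

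The 5p arms of miR-24 were scarce. mmu-miR-24-1-5p carried a remark in 6 of 6 comparisons, with folds in the authors' deposited table of 0.75 in HCD-HCD males, 1.09 in HCD-RD males and 1.02 in RD-HCD males. In females the authors' deposited table gave 1.07 for HCD-HCD, 1.52 for HCD-RD and 0.90 for RD-HCD. mmu-miR-24-2-5p carried a remark in 5 of 6 comparisons and had none in HCD-RD females, where its fold in the authors' deposited table was 1.42 (0.783 to 2.57). Its other folds in the authors' deposited table were 1.17 in HCD-HCD males, 1.41 in HCD-RD males, 1.01 in RD-HCD males, 1.09 in HCD-HCD females and 0.94 in RD-HCD females. Every interval derived for these arms held 1, and the widest of each arm on the log2 scale were 0.381 to 1.48 for mmu-miR-24-1-5p in HCD-HCD males and 0.698 to 2.85 for mmu-miR-24-2-5p in HCD-RD males.

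**Figure D3:**
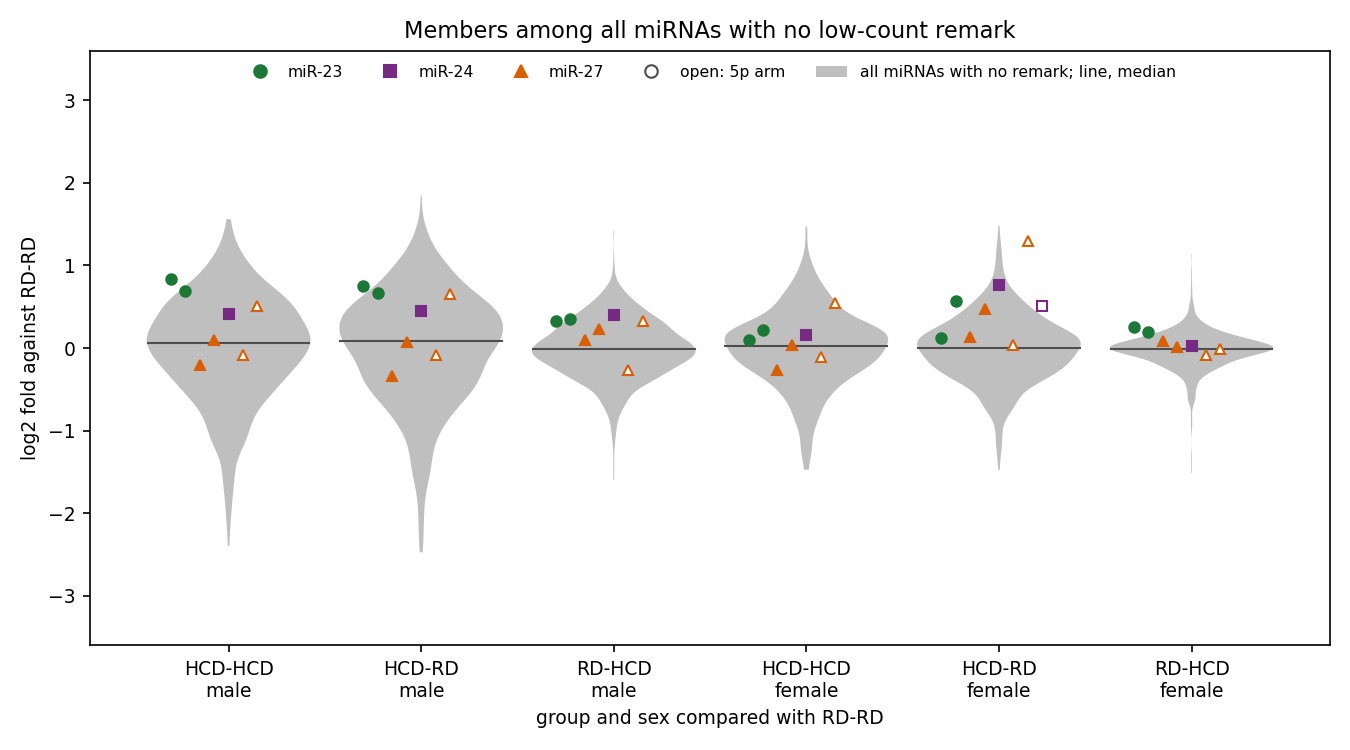
Log2 fold over RD-RD (y axis) of all miRNAs with no low-count remark (grey outlines, line at the median) in each comparison (x axis), with the members that have no remark as symbols by family and open symbols for 5p arms. mmu-miR-27b-5p in HCD-RD females stands at 1.30, above 99.6% of these miRNAs.

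Neighbours from the same primary transcript did not have the same fold. On chromosome 8 mmu-miR-23a-3p exceeded mmu-miR-27a-3p by 1.03 on the log2 scale in HCD-HCD males and by 1.10 in HCD-RD males. The same difference in RD-HCD males was 0.24, and in females it was 0.37 for HCD-HCD, -0.01 for HCD-RD and 0.17 for RD-HCD. On chromosome 13 mmu-miR-23b-3p exceeded mmu-miR-27b-3p in 6 of 6 comparisons, by 0.59 in HCD-HCD males, 0.60 in HCD-RD males and 0.09 to 0.17 in the other 4. These differences come from libraries in common, their error is not given by the tables, and they were not tested.

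Arms and paralogues also differed in size of fold, as values that were not tested. mmu-miR-27b-5p was above mmu-miR-27b-3p, the other arm of its hairpin, in 5 of 6 comparisons, by up to 0.82 on the log2 scale in HCD-RD females. mmu-miR-27a-5p was above mmu-miR-27a-3p in 3 of 6, between -0.37 and 0.25. mmu-miR-27a-5p was below its paralogue mmu-miR-27b-5p in 6 of 6 comparisons, by 0.07 in RD-HCD females to 1.26 in HCD-RD females. mmu-miR-27a-3p was above mmu-miR-27b-3p in 1 of 6 comparisons, and mmu-miR-23a-3p was above mmu-miR-23b-3p in 3 of 6. The miR-23 paralogues were furthest apart in HCD-RD females, where mmu-miR-23a-3p was lower by 0.44. The low-count mmu-miR-24-1-5p was below mmu-miR-24-3p in 6 of 6 comparisons.

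The same loci yield 4 further table entries. mmu-miR-23b-5p had folds in the authors' deposited table of 1.63 in HCD-HCD males, 1.86 in HCD-RD males and 1.20 in RD-HCD males, and of 1.17, 1.12 and 1.04 in HCD-HCD, HCD-RD and RD-HCD females. Its HCD-RD male value had an interval of 1.15 to 3.00 but an adjusted DESeq2 p of 0.0568. mmu-miR-23a-5p carried a remark in 4 of 6 comparisons and lay between 0.80 and 1.26 in the authors' deposited table. Mir3074-1 and Mir3074-2 lie on the strand opposite Mir24-1 and Mir24-2, and 20 bases of mmu-miR-3074-5p match the reverse complement of the 22-base mmu-miR-24-3p. mmu-miR-3074-5p rose in HCD-RD males 1.69-fold in the authors' deposited table (1.24 to 2.31, SE 0.23, adjusted DESeq2 p = 0.00995). Its other folds in the authors' deposited table were 1.40 in HCD-HCD males, 1.33 in RD-HCD males, and 1.16, 1.5 and 0.89 in HCD-HCD, HCD-RD and RD-HCD females. mmu-miR-3074-1-3p carried a remark in 6 of 6 comparisons and lay between 0.41 and 0.95 in the authors' deposited table.

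Other miRNAs that share a seed, or hold a member's seed at bases 1 to 7, were not called. mmu-miR-128-3p, a neuronal miRNA printed here because its bases 1 to 8 equal bases 2 to 9 of mmu-miR-27a-3p, has its own bases 2 to 8 in capitals.
mmu-miR-128-3p: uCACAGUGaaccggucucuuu

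Its folds in the authors' deposited table were 0.89 in HCD-HCD males, 1.06 in HCD-RD males and 1.03 in RD-HCD males. In females the authors' deposited table gave 0.62 in HCD-HCD (unadjusted DESeq2 p = 0.0175, adjusted 0.502), 1.29 in HCD-RD and 0.88 in RD-HCD. mmu-miR-6369 and mmu-miR-6410 share the seed of mmu-miR-24-3p, carried a remark in 6 and 4 of 6 comparisons, and their folds in the authors' deposited table ranged from 0.81 to 1.26 and from 0.53 to 1.03.

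Setting the male groups side by side against their common RD-RD libraries, mmu-miR-23a-3p in HCD-HCD was 1.05 times its level in HCD-RD and 1.41 times its level in RD-HCD, as ratios of folds in the authors' deposited table. mmu-miR-23b-3p in HCD-HCD was 1.01 times its level in HCD-RD and 1.26 times that in RD-HCD. mmu-miR-24-3p in HCD-HCD was 0.971 times its level in HCD-RD and 1.01 times that in RD-HCD, and mmu-miR-27a-3p was 1.10 and 0.813 times. The error of these ratios is not given by the tables, and they were not tested. A further deposited list of HCD-HCD against RD-HCD males, limited to a fold of at least 2 and an unadjusted p up to 0.05, has 47 entries and holds 0 of the 9 members.

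The male and female comparisons share no library, and the tables were normalised separately. Over 27 differences between the sexes, 20 had an interval, and 2 of those, both of mmu-miR-23a-3p, excluded 0. In HCD-HCD its male log2 fold exceeded the female one by 0.73 (95% interval 0.06 to 1.40), and in HCD-RD by 0.63 (0.02 to 1.25). With folds centred on the median of miRNAs with no remark the HCD-HCD value was 0.71 (0.04 to 1.38), but that of HCD-RD was 0.55 (-0.07 to 1.17) and held 0. In RD-HCD the difference was 0.08 (-0.54 to 0.70). For mmu-miR-23b-3p it was 0.47 (-0.21 to 1.15) in HCD-HCD and 0.10 (-0.50 to 0.71) in HCD-RD. The females' called members had male-minus-female values in HCD-RD of -0.65 (-1.49 to 0.19) for mmu-miR-27b-5p and -0.31 (-0.83 to 0.21) for mmu-miR-24-3p, with intervals that held 0. mmu-miR-27a-3p in HCD-RD was at -0.48 (-0.98 to 0.02), and at -0.56 (-1.06 to -0.06) when centred. The intervals are not adjusted for the number of differences, and the differences were not tested.

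**Figure D4:**
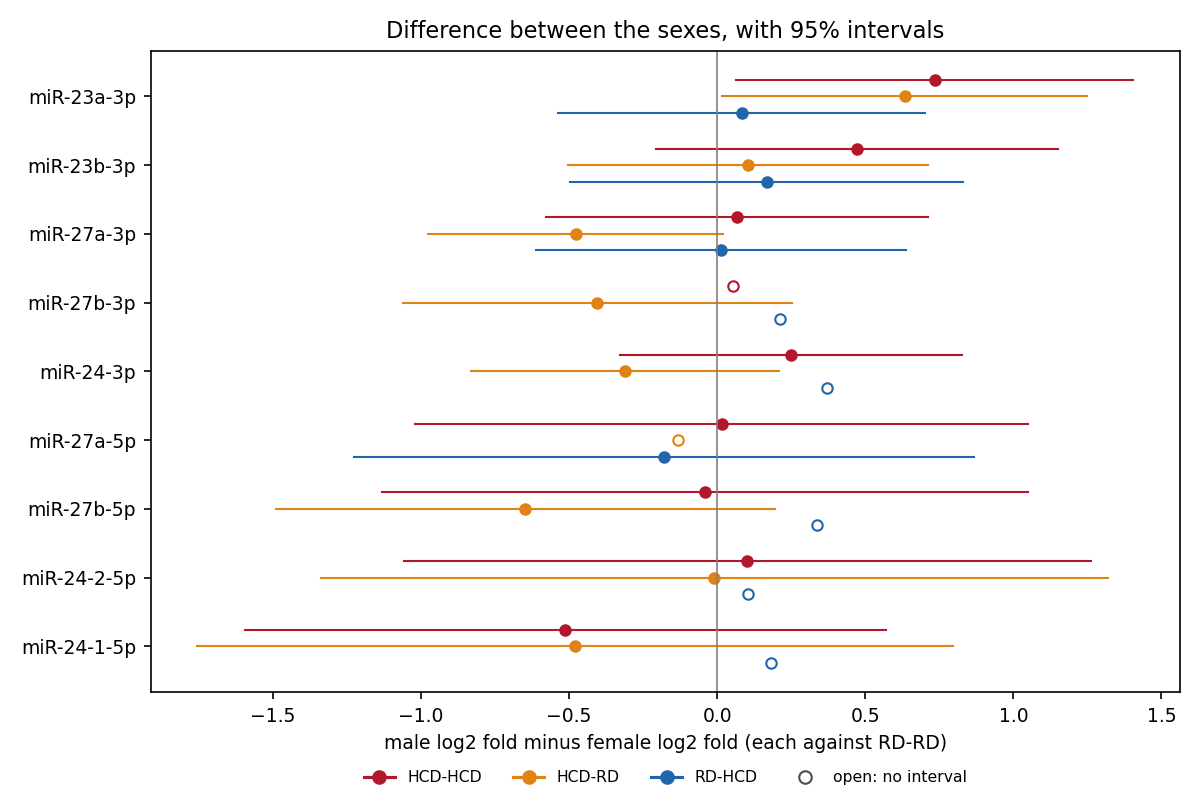
Male minus female log2 fold over RD-RD (x axis) of each member (rows) in HCD-HCD, HCD-RD and RD-HCD, with 95% intervals as bars and open points where none could be derived. The bars of mmu-miR-23a-3p in HCD-HCD (0.06 to 1.40) and HCD-RD (0.02 to 1.25), drawn without centring, lie above 0.

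Cell type markers were called in the same male comparisons as the miR-23 entries. Of 26 miRNA markers in 6 lists, all with no remark, 6 were called higher and 6 lower in HCD-HCD males, and 5 higher and 8 lower in HCD-RD males. Among all 1426 miRNAs 5.61% were called higher and 13.7% lower in HCD-HCD males, and 6.38% and 12.0% in HCD-RD males. Only 757 and 765 of these miRNAs had no remark. The shares thus include low-count miRNAs, which the marker lists do not, and are an unlike background for each list. For RD-HCD males, and for HCD-HCD, HCD-RD and RD-HCD females, none was called, with 4, 6, 0 and 1 at an unadjusted DESeq2 p under 0.05. The oligodendrocyte marker mmu-miR-219a-5p had a fold of 0.83 but no p-value in HCD-RD females, so it could not be called there. Of the 5 endothelial and mural markers, 2 were called higher and 0 lower in HCD-HCD males, with folds from 0.77 to 2.54 in the authors' deposited table. In HCD-RD males 1 of them was called higher and 1 lower, and in HCD-RD females their folds ran from 0.78 to 1.25 in the authors' deposited table. mmu-miR-145a-3p, a mural cell miRNA, rose 2.54-fold in HCD-HCD males and 1.91-fold in HCD-RD males in the authors' deposited table (adjusted DESeq2 p = 2.679e-05 and 0.00517). mmu-miR-126a-3p, the main endothelial miRNA, was at 0.77 and 0.68 in HCD-HCD and HCD-RD males in the authors' deposited table, with adjusted DESeq2 p-values of 0.0770 and 0.00546. Its other arm mmu-miR-126a-5p rose 1.34-fold in HCD-HCD males (adjusted DESeq2 p = 0.0411) and was at 0.90 in HCD-RD males in the authors' deposited table. The remaining markers of this list were not called, with mmu-miR-145a-5p at 1.04 and 1.17 and mmu-miR-143-3p at 0.98 and 0.72 in HCD-HCD and HCD-RD males of the authors' deposited table.

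The 5 neuron markers had 0 calls in every comparison, with at most 2 at an unadjusted DESeq2 p under 0.05 and folds from 0.62 to 1.44 in the authors' deposited table. Oligodendrocyte markers had 1 called higher and 1 lower of 4 in HCD-HCD males and 1 and 2 in HCD-RD males. Microglia and leukocyte markers had 1 higher and 2 lower of 4 in both. Choroid plexus and ependymal markers had 2 higher and 2 lower of 5 in HCD-HCD males and 1 and 2 in HCD-RD males, and erythrocyte markers 0 and 1 of 3, then 1 and 1. The part of any cell type in the folds of the members was not tested.

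Other miRNAs with roles like those ascribed to the clusters were counted in 2 lists. Of 13 regulators of lipid, adipocyte and glucose metabolism, 1 was called higher and 3 lower in HCD-HCD males and 0 higher and 4 lower in HCD-RD males, where 5.61% and 13.7%, then 6.38% and 12.0%, of all miRNAs were. These shares include low-count miRNAs, while every entry of the 2 lists had no remark. mmu-miR-33-5p, the intronic miRNA of Srebf2 that represses the cholesterol exporter Abca1, fell to 0.25 times its RD-RD level in HCD-HCD males and 0.21 times in HCD-RD males in the authors' deposited table (adjusted DESeq2 p = 8.412e-08 and 8.262e-11). mmu-miR-130a-3p, which like miR-27 represses Pparg, fell to 0.63 and 0.56 times its RD-RD level in the same groups of the authors' deposited table (adjusted DESeq2 p = 0.00360 and 9.936e-05). Of 10 angiogenesis and endothelial miRNAs, 2 were called higher and 3 lower in HCD-HCD males, and 2 higher and 4 lower in HCD-RD males. mmu-miR-92a-3p, an endothelial angiogenesis inhibitor, rose 1.95-fold in HCD-RD males, and mmu-miR-296-5p fell to 0.27 times its RD-RD level in HCD-HCD males in the authors' deposited table (adjusted DESeq2 p = 6.048e-04 and 6.672e-06). No entry of these lists was called in the other 4 comparisons, where at most 3 of either list had an unadjusted DESeq2 p under 0.05. The lists share mmu-miR-130a-3p, and the angiogenesis list holds 2 endothelial markers and 1 neuron marker. The lipid list holds the mural marker mmu-miR-143-3p and the erythrocyte marker mmu-miR-144-3p, whose fall to 0.30 and 0.26 times its RD-RD level in HCD-HCD and HCD-RD males of the authors' deposited table is counted in both lists (adjusted DESeq2 p = 5.985e-05 and 6.024e-06).

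Among 600 other miRNAs with no remark in all 6 comparisons, the entry whose folds lay nearest the mean of the 5 3p members was mmu-miR-30c-5p, at a root mean square difference of 0.11 on the log2 scale over the 6 comparisons. The next were mmu-miR-7065-3p at 0.11, mmu-miR-337-5p at 0.12, mmu-miR-1982-3p at 0.13 and mmu-miR-324-5p at 0.13. The members themselves lay between 0.16 for mmu-miR-27b-3p and 0.40 for mmu-miR-27a-3p from that mean. The 5 named miRNAs were picked as the nearest of 600 and the members were not picked by distance. Their distances therefore cannot be set against each other. The 6 comparisons share RD-RD libraries within a sex, so likeness is a description of these tables.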

How the data were processed

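Small RNA of mouse hypothalamus was sequenced in 25 libraries with a QIAseq miRNA kit that adds unique molecular identifiers, per the labels' protocols. The fold is a ratio of the group to its control after DESeq2 normalisation by the authors, to 2 decimals, per the file headers. The deposited p-value comes from DESeq2 without adjustment, per the file headers. The list of HCD-HCD against RD-HCD males holds a fold regulation score, the fold or minus its inverse, per the file headers. The submitters' processing notes name build mm10, and the DESeq2 version, aligner and counting rule are not stated there or in the labels. Depth per library is unknown. Males were in 1 deposited table, and HCD-RD females in another than the other females.

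P-values were adjusted over the miRNAs with a p, leaving out 103 piRNA entries, with Python 3.11.15, NumPy 2.4.6 and SciPy 1.17.1. The SE is the size of the log2 fold over the normal score of p; its limit of 0.05 was set after the folds were seen. Rounding of folds adds to the error of small log2 folds. The adjustment was tested on simulated data for the miRNAs with no remark and a derived SE, 596 to 751 per comparison. Of these, 200 in each comparison were given a set fold. At a fold of 1.5, the adjustment recovered 15.5%, 22.5% and 18.0% of the 200 for HCD-HCD, HCD-RD and RD-HCD males. In females it recovered 2.0%, 12.5% and 2.5% in the same order. At a fold of 2.0 the share lay between 48.0% and 75.0%. Most simulated 1.5-fold changes were thus missed, so the lack of a call does not show that a member was unchanged. The calls of the members were adjusted over 1298 to 1497 miRNAs, low-count ones included. The shares recovered in the smaller simulated sets need not hold there. Groups came from the labels; single RD-HCD male libraries are numbered differently in the sample sheet and the titles, so that group was matched by its code.

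The members and lists were chosen with earlier results of these data known. Named are all members, other entries of the same hairpins or their antisense, and miRNAs that share a seed or hold it at shifted bases. Also named are the 5 nearest by root mean square difference, and at most the 3 smallest p-values per list and comparison. The endothelial and mural list is given in full for HCD-HCD and HCD-RD males, which was decided after its values were seen. The lists were 6 sets of cell type markers (neuron, oligodendrocyte, microglia and leukocyte, endothelial and mural, choroid plexus and ependymal, erythrocyte), lipid, adipocyte and glucose regulators, and angiogenesis and endothelial miRNAs. Seeds were compared with 1679 RefSeq mature miRNAs. Other adjustments, call rules, low-count filters and centring on the median were tried. Sheets that repeat the folds were left out.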

Additional observations from a re-analysis of the deposited data

How the results depend on the processing

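With the Benjamini-Yekutieli or the Holm adjustment in place of Benjamini-Hochberg, 1 member in place of 2 was called in HCD-HCD males and 1 in place of 2 in HCD-RD males, since these adjustments are stricter by construction and mmu-miR-23b-3p no longer passed. Under the same adjustments the counts of the other 4 comparisons stayed within 1.5 times, as did all 6 counts with piRNA entries included, with low-count miRNAs left out, at an unadjusted p under 0.01, or with a fold of at least 1.5 required. Centring on the median of miRNAs with no remark kept the sign of 52 of 54 member folds, and of all 6 called ones. mmu-miR-27b-3p in HCD-RD males was 0.07 on the log2 scale and -0.01 when centred, and mmu-miR-27b-5p in RD-HCD females was 0.0 when centred. Of the sex differences, centring kept 1 interval that excluded 0 in HCD-HCD (mmu-miR-23a-3p) and 1 in HCD-RD, but there it was that of mmu-miR-27a-3p, at -0.56 (-1.06 to -0.06), while mmu-miR-23a-3p, at 0.55 (-0.07 to 1.17), then held 0. The 5 nearest miRNAs were also the 5 nearest with centred folds. No paired analysis was possible because the tables hold no value per library, and for the same reason leaving out single replicates could not be fitted. Depth and the level of each member are unknown, so arms with a remark limit what can be said of mmu-miR-24-1-5p and mmu-miR-24-2-5p.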
